A study of Rattus norvegicus with 8 samples.

Results

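The genes described here make fatty acids, lengthen them and put double bonds into them, together with a transcription factor that drives them and a phosphatase that passes their product on to triglyceride. The 10 genes, of 14217 on the array with a symbol of their own, are Scd, Scd2, Fasn, Acly, Elovl5, Elovl6, Fads1, Fads2, Srebf1 and Lpin1. All probe sets whose only symbol in the array annotation is one of these 10 genes were taken, which gave 18 probe sets among 31042, array controls aside, and 17 of them, from 9 genes, were bright enough to be tested. A probe set is a group of short probes read together for a gene, and its value is a MAS5 signal on a linear scale. Whether the probes of Scd and Scd2 also bind each other's transcripts was not examined. The genes were chosen by the difference in these same signals between quercetin and control arrays together with their role, so that difference is a description and supports nothing.

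Arrays of 4 quercetin samples and 4 control samples were compared. The quercetin rats had eaten a diet with 10 g of the plant flavonol quercetin per kg for 11 weeks, and the control rats had eaten RM3 [E] FG SQC, a breeder diet for rats, for as long. The RNA came from the scraped mucosa of the distal colon, which holds epithelium together with connective tissue, immune cells and any fat or muscle that came off with it. The sources used here leave out strain, sex and age, and do not state that each array is a separate rat, so errors measure the spread between these samples.

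Fatty acid synthesis starts in the cytosol. ATP citrate lyase (Acly) cuts citrate into acetyl-CoA, and fatty acid synthase (Fasn) builds palmitate from it. Elovl6 lengthens palmitate to stearate, and the stearoyl-CoA desaturases Scd and Scd2 turn stearate into oleate. Fads2, Elovl5 and Fads1 work in turn on dietary linoleic and linolenic acids to make arachidonic acid and the long omega fatty acids. Srebf1 encodes SREBP1, a membrane-bound factor that moves to the nucleus and activates most of these genes, often beside the factor NF-Y, which binds the letters CCAAT. Lpin1 encodes lipin 1, which takes the phosphate off phosphatidic acid on the way to triglyceride and also acts in the nucleus on fat oxidation genes. In rodents Scd is the form of liver and fat, while Scd2 is found in many other tissues, the brain above all.

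The desaturase genes lie close together in pairs. Scd and Scd2 sit on rat chromosome 1 with 1 protein-coding gene, Scd4, between them, and Fads1 and Fads2 are direct neighbours on the same chromosome, by RefSeq's order of genes on GRCr8. RefSeq start sites were found for 8 of the 10 genes, 9 starts in all, and not for Fasn or Elovl6. The 120 bases before the start are shown for the pair of stearoyl-CoA desaturases and for Lpin1, because Scd2 and Lpin1 are the genes with a probe set whose diets did not overlap, and Scd is the paralogue of Scd2. Capitals mark the letters CCAAT. The stretches are from RefSeq, build GRCr8: Scd2 at chr1:253118257-253118376, plus strand, Scd at chr1:253231732-253231851, minus strand, and Lpin1 at chr6:45108943-45109062, minus strand.
Scd2: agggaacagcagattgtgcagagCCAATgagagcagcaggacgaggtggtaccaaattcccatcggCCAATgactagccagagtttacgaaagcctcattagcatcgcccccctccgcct
Scd: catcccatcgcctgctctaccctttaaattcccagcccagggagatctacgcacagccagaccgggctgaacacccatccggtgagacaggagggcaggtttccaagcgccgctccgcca
Lpin1: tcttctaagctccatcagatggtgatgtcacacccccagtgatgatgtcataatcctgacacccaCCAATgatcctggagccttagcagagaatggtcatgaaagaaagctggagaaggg
Scd2 held CCAAT at 2 places, whose leftmost bases lay at -97 and -54 from the start, and Lpin1 held it once, at -55. Scd and Fads2 held none in their windows of 250 bases before to 50 after the start. The letters were also found at Fads1, Elovl5, Acly and both starts of Srebf1, genes whose diets overlapped, so they do not set Scd2 and Lpin1 apart. Over these longer windows and both strands, CCAAT was found at 37.5% of 33469 rat starts. Of the 9 starts here all but those of Scd and Fads2 held it, which is a larger share. The difference between these shares was not tested. The letters CACGTG, an E-box, were in 6.42% of the starts, and TCANNCCAC, which resembles the sterol element bound by SREBP, in 3.96%. Among the 9 starts of these genes both were found at Elovl5 alone, at -212 and at -37. These matches describe the letters and not bound sites.

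Among the tested probe sets the diets were fully apart on 1 probe set of Scd2, which was lower after quercetin, and on 1 of Lpin1, which was higher. Fasn, Acly, Elovl5, Elovl6, Fads1, Scd and Srebf1 had diets that overlapped on each of their probe sets. None of the 17 probe sets bright enough to be tested had an adjusted p under 0.05 (limma with Benjamini-Hochberg adjustment over 18625 probe sets, lowest adjusted p = 0.233, highest 0.985), where 2 probe sets of all those tested did, 0.0107%. At an unadjusted p under 0.05 there were 2 of 17, or 11.8%, against 10.8% of all probe sets tested. One was higher, as 5.04% of all were, and one lower, as 5.71% of all were. The diets did not overlap in the same 2, against 6.39% of all probe sets, 3.09% higher and 3.3% lower. Nothing is read from these counts, since the same contrast chose the genes. The median log2 difference was -0.09 over the 17 and 0.01 over all probe sets tested, with 4 of the 17 higher and 13 lower. Every log2 difference here is quercetin minus control on the scale log2(signal + 16), which understates the change of dim probe sets.

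**Figure D1:**
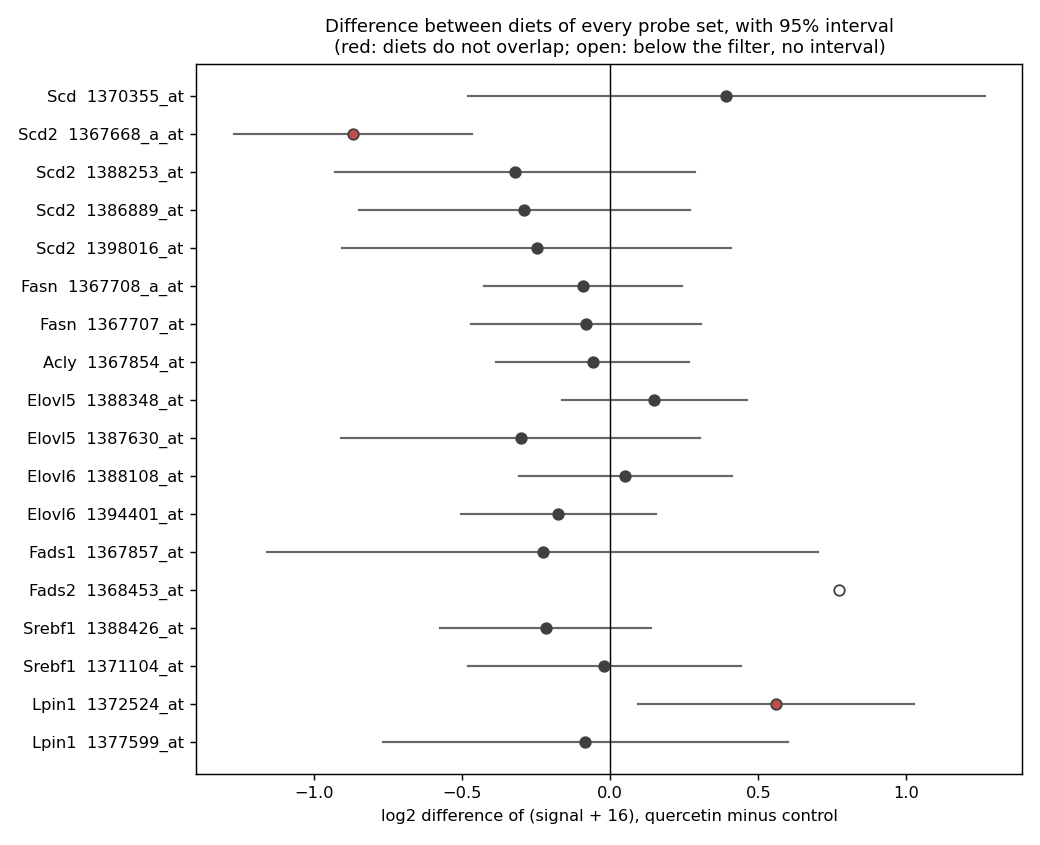
Log2 difference between quercetin and control arrays (horizontal axis, quercetin minus control, on log2(signal + 16)) for all 18 probe sets, with the 95% interval of limma's fit as a line. The Scd2 probe set at -0.87 and the Lpin1 probe set at 0.56 are drawn in red because their 2 diets did not overlap, and every other line crosses 0; Fads2, drawn open, was below the filter and has no interval.

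Scd2 was the member with the lowest unadjusted p. Its probe set 1367668_a_at had signals of 1871, 1572, 1170 and 1024 on quercetin arrays 1 to 4, against 3151, 2346, 2277 and 2376 on control arrays 1 to 4. The highest quercetin array lay below the lowest control array, and control array 1 stood above the other controls. The mean was 1409 ± 385 in quercetin and 2537 ± 411 in control (SD, n = 4 each). The log2 difference was -0.87 (SE 0.19, 95% interval -1.27 to -0.47), a ratio of 0.548 of quercetin to control on that scale, with a limma adjusted p of 0.233. Of all probe sets tested, 299 were lower by as much or more, 1.61%. The value ran from -1.02 to -0.73 over 19 alternatives and was -0.76 without control array 1. In RNA from a whole scraping, fewer cells of a type and less RNA per cell cannot be told apart.

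The other 3 probe sets of Scd2 were dim, near the signal of 29.4 at which the filter began. Probe set 1388253_at had 41.7, 52.8, 47.1 and 42.5 in quercetin, against 67.6, 77.7, 83.6 and 29.7 in control, a log2 difference of -0.32 (SE 0.28). Its 4 quercetin arrays were below 3 of the control arrays and above control array 4. Probe set 1386889_at had 33, 53.6, 35.6 and 32.2 in quercetin, against 51.4, 37.9, 61.5 and 51.2 in control (-0.29, SE 0.26). Probe set 1398016_at had 49.8, 44.6, 14.2 and 30.6 in quercetin, against 42.2, 39.6, 37.9 and 48.2 in control (-0.25, SE 0.30). All 3 had negative differences in each of the alternatives, and with all arrays their 95% intervals included 0. Without control array 4, its lowest control, 1388253_at had -0.57 (limma unadjusted p = 0.0388, adjusted p = 0.511). Their deviations from the diet means did not follow those of 1367668_a_at closely (Pearson r 0.04, 0.22 and 0.64, exact permutation adjusted p = 0.983, 0.983 and 0.642 over 11 pairs, 8 arrays). The log2 difference of 1398016_at was -0.02 without quercetin array 3, its lowest array.

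**Figure D2:**
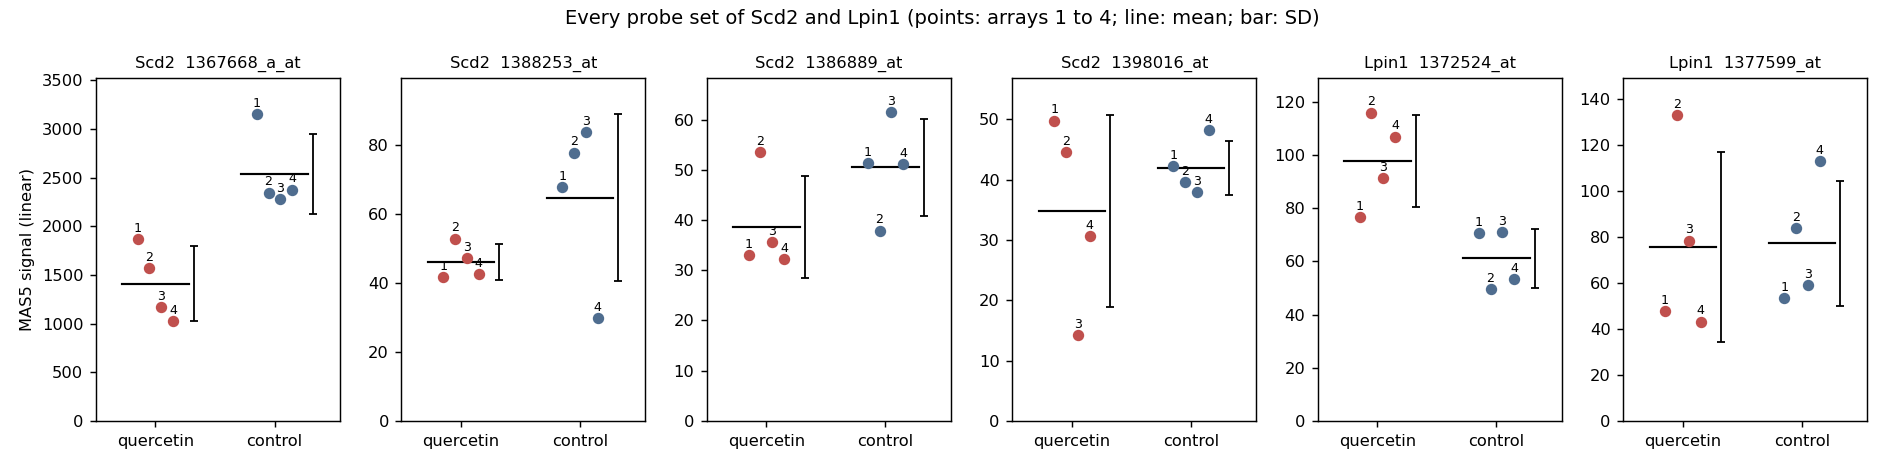
MAS5 signal (vertical axis, linear, from 0, a scale of its own in each panel) of the 4 Scd2 and 2 Lpin1 probe sets on every array, numbered 1 to 4 within quercetin (left) and control (right), with the mean as a line and the SD as a bar. The diets separate in Scd2 1367668_a_at, with 1024 to 1871 in quercetin against 2277 to 3151 in control, and in Lpin1 1372524_at, and overlap in the other 4 panels.

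Scd, the other stearoyl-CoA desaturase measured, was dim. Its probe set had 67.7, 39.4, 58.6 and 51.4 in quercetin, against 60.3, 3.96, 57.6 and 54 in control. Control array 2 was far below the other 7 arrays, which overlapped. The log2 difference of 0.39 (SE 0.40, 95% interval -0.48 to 1.27) became -0.08 without that array. The difference between the diets in Scd2 was not tested against that in Scd.

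Acly and Fasn, the first steps of the pathway, had diets that overlapped. Acly had signals of 1879, 1723, 1573 and 1448 in quercetin, against 1543, 2241, 1686 and 1492 in control. Apart from control array 2, which was the highest, the arrays of both diets lay in one range, and the log2 difference was -0.06 (SE 0.15, 95% interval -0.39 to 0.27). It turned to 0.07 without control array 2. The brighter Fasn probe set, 1367708_a_at, had 1200, 1113, 1108 and 1013 in quercetin, against 990, 1598, 1108 and 1106 in control. Control array 2 was again the highest, and the difference of -0.09 (SE 0.15, 95% interval -0.42 to 0.24) turned to 0.05 without it. The second, 1367707_at, had 277, 261, 165 and 269 in quercetin, against 233, 248, 273 and 261 in control (-0.08, SE 0.18). There quercetin array 3 was low and the rest overlapped, with a difference of 0.08 without that array. For Acly and both Fasn probe sets the 95% intervals leave room for changes of up to 0.47 on the log2 scale in the lower direction and 0.31 in the higher.

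Elovl6 and Elovl5, the elongases, each had probe sets with differences of opposite sign. Elovl6 probe set 1388108_at had 996, 1052, 1492 and 1608 in quercetin, against 1310, 1311, 1160 and 1095 in control. The quercetin arrays fell on both sides of the controls, 2 below and 2 above, with a difference of 0.05 (SE 0.17). Probe set 1394401_at had 613, 517, 729 and 792 in quercetin, against 772, 664, 795 and 738 in control (-0.17, SE 0.15). Quercetin arrays 1 and 2 were the lowest of the 8 on both Elovl6 probe sets. The value of 1388108_at turned to -0.03 without quercetin array 3 and to -0.07 without quercetin array 4, which gives both probe sets the same sign.

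Elovl5 probe set 1388348_at had signals of 1065, 844, 906 and 817 in quercetin, against 687, 935, 886 and 766 in control. Its difference was 0.15 (SE 0.14, 95% interval -0.16 to 0.46). Probe set 1387630_at had 25.2, 50.9, 37.1 and 45.1 in quercetin, against 77.3, 37.9, 42.3 and 54.6 in control (-0.30, SE 0.28). The arrays stood in nearly opposite order on the 2 probe sets: quercetin array 1 was the highest on the first and the lowest on the second, and control array 1 the reverse. As deviations from the diet means over 8 arrays, the 2 had a Pearson r of -0.97 (exact permutation of the arrays within diets, p = 0.00347, adjusted p = 0.0382 over 11 pairs of probe sets of 1 gene, two-sided) and a Spearman rho of -0.98 (exact permutation p = 0.00521, adjusted p = 0.0573). Without the 2 arrays farthest from the median r was -0.94. With each array centred on its median r was -0.71 and the pair did not pass (exact permutation adjusted p = 0.115). The other 10 pairs had r from -0.46 to 0.72 and none passed (exact permutation adjusted p = 0.642 to 0.983). The choice of genes did not use these deviations, but the test was added after the other tests had been set.

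Fads1 and Fads2, the desaturases of polyunsaturated fatty acids, varied widely among arrays of 1 diet. Fads1 had signals of 95, 95.2, 38.8 and 36.6 in quercetin, against 26.3, 189, 85.8 and 59.8 in control. Control array 2 held the highest value and control array 1 the lowest, so the quercetin arrays lay inside the range of the controls. The difference of -0.23 (SE 0.43, 95% interval -1.16 to 0.70) was 0.17 without control array 2, -0.59 without control array 1 and -0.07 with the GAPDH ratio of the arrays as a covariate. Fads2 was below the filter on dim probe sets and was not tested. It had 51.6, 45.5, 28.1 and 30.1 in quercetin, against 7.06, 51.1, 15 and 4.72 in control. The 4 quercetin arrays lay above 3 of the controls, and control array 2 was level with the highest of them. The log2 difference was 0.77, with no test. On both genes quercetin arrays 1 and 2 were above quercetin arrays 3 and 4, and control array 2 was the highest control.

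Srebf1 showed no separation of the diets. Probe set 1388426_at had 243, 279, 233 and 199 in quercetin, against 313, 312, 230 and 267 in control (-0.22, SE 0.17, 95% interval -0.57 to 0.14). Control arrays 1 and 2 were the highest, and the other arrays of both diets overlapped. Probe set 1371104_at had 99.9, 110, 85.8 and 140 in quercetin, against 129, 78.4, 128 and 109 in control (-0.02, SE 0.21). The sign of that value turned under 5 of 19 alternatives, among them median centring of the arrays.

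Lpin1 was higher after quercetin on 1 of its 2 probe sets. Probe set 1372524_at had 76.8, 116, 91.5 and 107 in quercetin, against 70.6, 49.7, 70.9 and 53.3 in control. The lowest quercetin array was just above the highest control array. The mean was 97.8 ± 17.3 in quercetin and 61.1 ± 11.2 in control (SD, n = 4 each), a log2 difference of 0.56 (SE 0.22, 95% interval 0.09 to 1.03) with a limma adjusted p of 0.379. Its unadjusted p, 0.0221 in limma's fit with all arrays, was 0.0542 without control array 4, 0.0658 without quercetin array 2 and 0.0581 without quercetin array 4. Probe set 1377599_at had 47.8, 133, 78.4 and 43.2 in quercetin, against 53.4, 83.9, 59.1 and 113 in control (-0.08, SE 0.32). Its diets overlapped over nearly their whole range, and its deviations had an r of 0.01 with those of the first probe set (8 arrays, exact permutation adjusted p = 0.983).

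**Figure D3:**
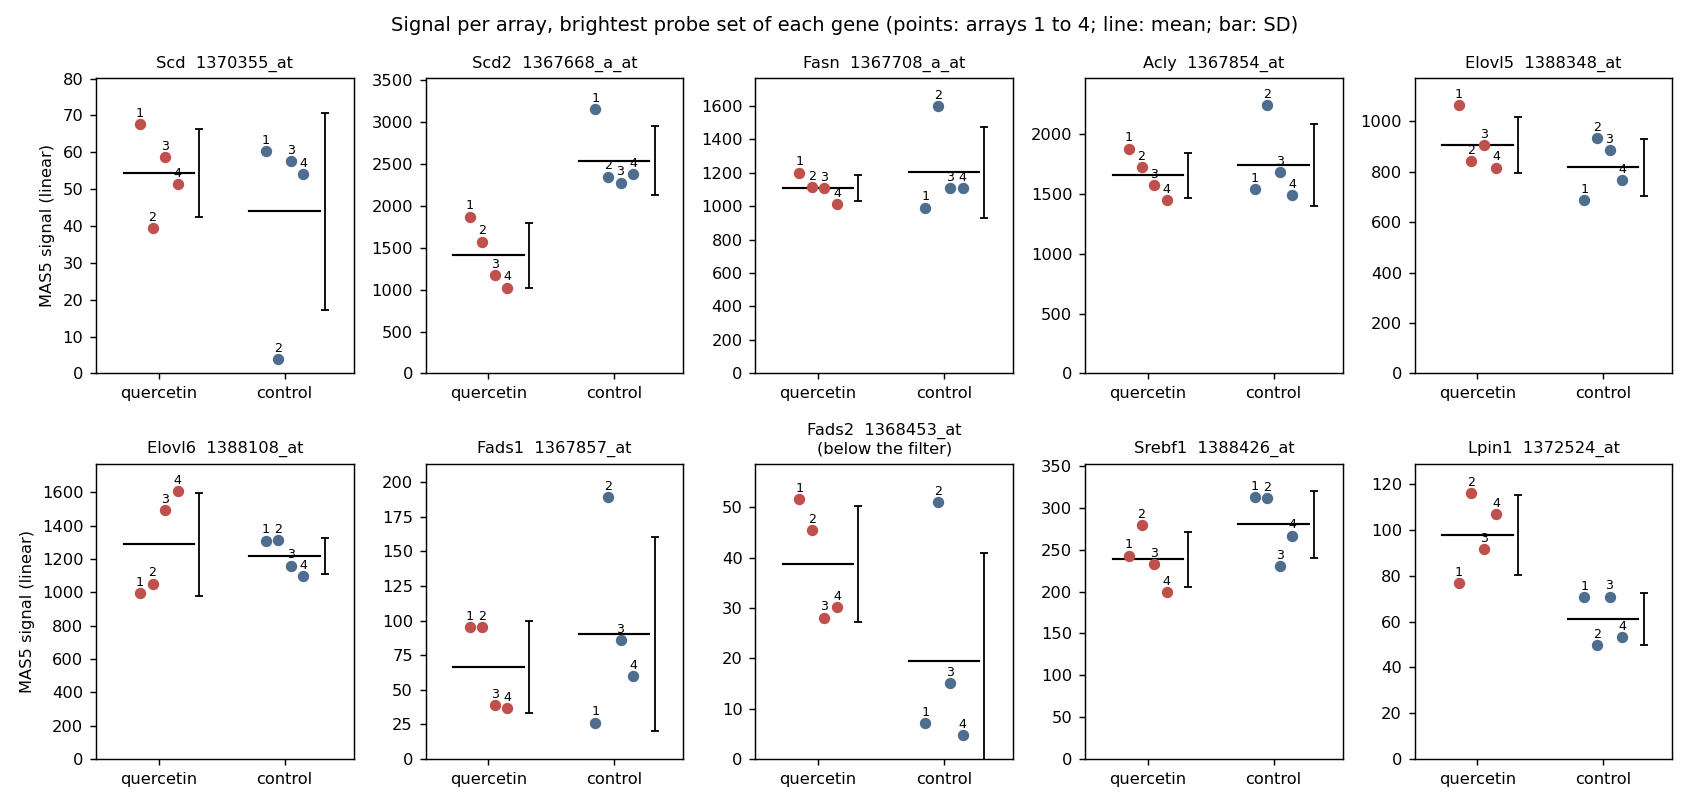
MAS5 signal (vertical axis, linear, from 0, a scale of its own in each panel) of the brightest probe set of each of the 10 genes on every array, numbered 1 to 4 within quercetin (left) and control (right), with the mean as a line and the SD as a bar, which is cut at 0 for Fads2. Control array 2 is the highest control for Fasn, Acly, Elovl5, Fads1 and Fads2, and for Elovl6, where control array 1 is level with it. It is the lowest of all arrays for Scd and Lpin1. Scd2 and Lpin1 are the panels in which the diets do not overlap.

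Whether the genes vary together among samples of 1 diet was measured apart from the contrast that had chosen them. Deviations from the diet mean over 8 arrays were correlated between the brightest tested probe sets of 9 genes, in 36 pairs. Fasn, Acly, Elovl5 and Fads1 had positive correlations with each other. They were 0.92 for Fasn with Acly, 0.88 for Fasn with Fads1, 0.89 for Acly with Fads1, and 0.76 to 0.78 for Elovl5 with each of the 3. Of the 36 pairs 7 had an unadjusted exact permutation p under 0.05, these 6 and Fasn with Lpin1 (r -0.65). None passed the adjustment (lowest exact permutation p = 0.00347, adjusted p = 0.125, two-sided). The genes were grouped by these same correlations, so the low p-values of the 6 are a description. Scd had an r of -0.86 with Fasn, -0.75 with Acly and -0.71 with Fads1 (exact permutation adjusted p = 0.469 for each), and -0.37 with Elovl5. Spearman's rho was 0.69 to 0.90 for the 6 pairs (exact permutation adjusted p = 0.281 to 0.511). These values hold for the brightest probe sets only. The second Fasn probe set had an r of 0.02 with the first, and the second Elovl5 probe set -0.97 with its first. Correlations of the second probe sets with other genes were not computed.

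The 6 correlations were smaller without the 2 arrays farthest from the median of the first gene, at 0.45 to 0.89. Control array 2 was the highest control for all 4 genes, and its part in the correlations was not tested. When the diet mean was left in, 3 pairs passed, those among Fasn, Acly and Fads1 (exact permutation adjusted p = 0.00714 to 0.0292). Fads2, added after the values had been seen, had an r of 0.97 with Acly, 0.91 with Fasn and 0.89 with Fads1, and again no pair passed (exact permutation adjusted p = 0.117, 0.205 and 0.188 over 45 pairs).

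Scd2 did not follow that group. Its r was 0.00 with Fasn, 0.29 with Acly, 0.10 with Elovl5 and 0.13 with Fads1 (exact permutation adjusted p = 0.748 to 0.997). It had 0.65 with Srebf1 (Spearman's rho 0.64, exact permutation adjusted p = 0.469) and -0.71 with Elovl6 (rho -0.81, exact permutation adjusted p = 0.504). Srebf1 had 0.35 with Fasn, 0.47 with Acly, -0.07 with Elovl5 and 0.28 with Fads1 (exact permutation adjusted p = 0.676 to 0.905).

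Among all probe sets with 1 symbol, the deviations most like those of Scd2 were those of Cox4i1 (Pearson r 0.97 over 8 arrays, a description), Dynlt1 (0.95), Hnrnpc (0.95), Il10rb (0.94) and Qng1 (0.94). For Fasn they were those of Sdhaf2 (0.99), Mphosph8 (0.99), Sf3b3 (0.99), Zfp386 (0.98) and Smad5 (0.98), and for Scd, with its single low array, those of Kif16b (0.99), Zbtb8os (0.99), Chd1 (0.98), Ddx3x (0.98) and Gpbp1 (0.98). None of the 15 is a gene of the lipid lists. The hundredth most like still had 0.81 for Scd2, 0.93 for Fasn and 0.94 for Scd.

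**Figure D4:**
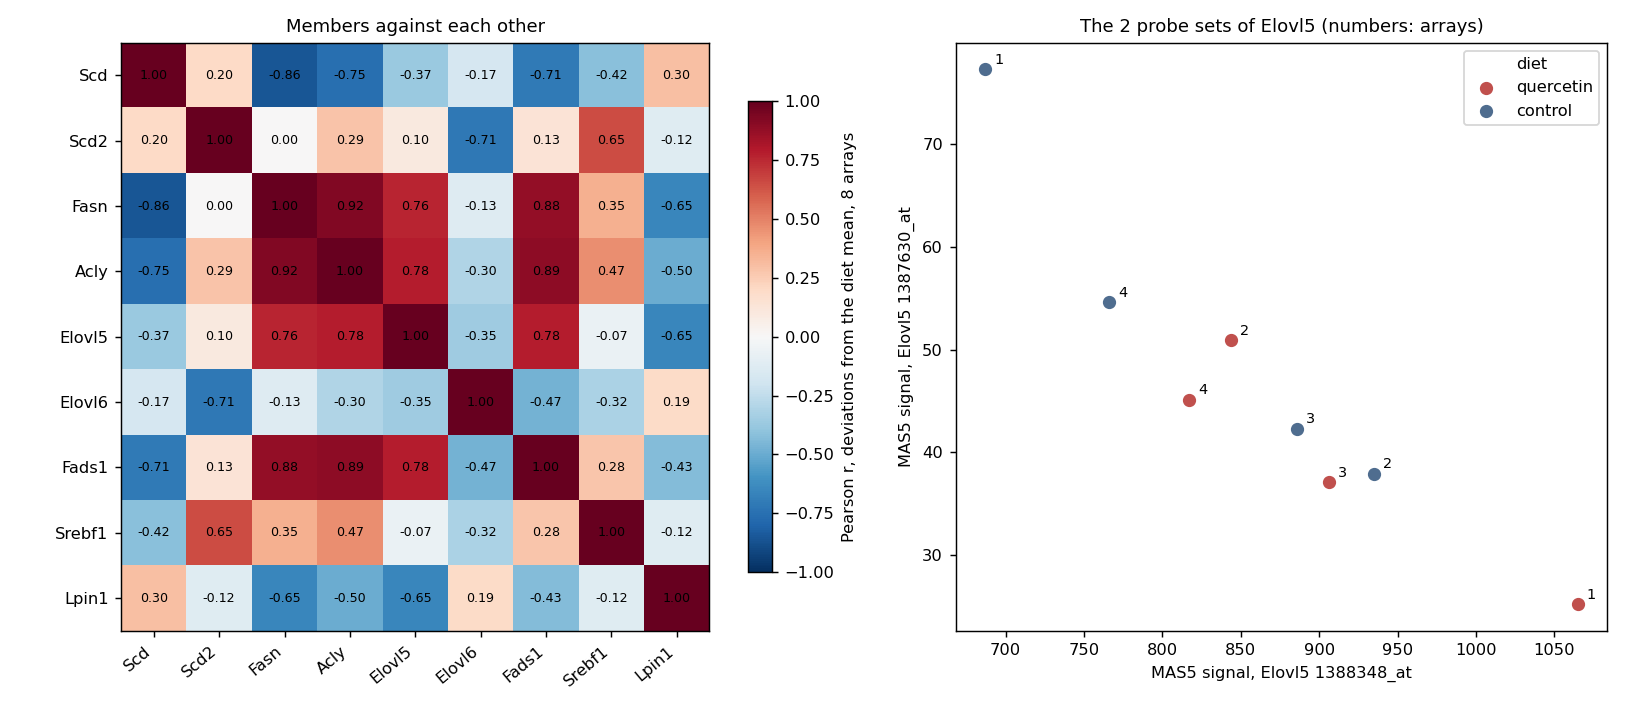
Left, Pearson r between the brightest tested probe sets of 9 genes, from deviations from the diet mean over 8 arrays, with Fasn, Acly, Elovl5 and Fads1 at 0.76 to 0.92 with each other. Right, signal of the 2 Elovl5 probe sets on each array (numbered within quercetin and control), which run in opposite directions, from quercetin array 1 at 1065 and 25.2 to control array 1 at 687 and 77.3.

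The rest of the lipid pathway was measured through a list of 51 genes of fatty acid activation, elongation, glycerolipid assembly and breakdown, and control by SREBP and ChREBP, of which 41 had a tested probe set. By the brightest probe set 26 were higher and 15 lower after quercetin, with a median log2 difference of 0.09, against 0.04 over all genes tested. None had an adjusted p under 0.05 in limma's fit, where 1 of 10266 genes did, 0.00974%. At an unadjusted p under 0.05 there were 7 of 41, 17.1%, against 9.39% of all genes. They were 5 higher and 2 lower, against 6.06% and 3.33% of all genes. The diets did not overlap in 4 of the 41, all of them higher in quercetin, against 5.84% of all genes, 3.77% higher and 2.07% lower. Without control arrays 1 and 2, 3 genes of the list had an unadjusted p under 0.05 (Agpat5, Lpin2 and Mgll).

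On the higher side was Mgll, the lipase that splits monoglycerides, with 200 to 452 in quercetin against 45.0 to 194 in control and a log2 difference of 1.00 (SE 0.36). The other 2 tested Mgll probe sets had 1.14 and 1.03, and without control arrays 1 and 2 the value was 0.63. Agpat5, an acyltransferase of phosphatidic acid synthesis, had 381 to 808 in quercetin against 263 to 424 in control (0.66, SE 0.22), with 0.18 on another probe set. Dgat2, which makes triglyceride from diglyceride, had 293 to 411 in quercetin against 173 to 323 in control (0.50, SE 0.20), with 0.61 on another. Scap, the escort that carries SREBP to the Golgi, had 415 to 696 in quercetin against 324 to 393 in control (0.46, SE 0.17), with -0.15 on another. Of these 4, the diets did not overlap for Mgll and Scap.

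On the lower side was Mlxipl, which encodes the sugar-sensing factor ChREBP, with 147 to 217 in quercetin against 208 to 307 in control (-0.54, SE 0.18). Lpin2, a relative of Lpin1, had 199 to 240 in quercetin against 230 to 394 in control (-0.45, SE 0.18), with -0.08 on another probe set. The acyl-CoA synthetases Acsl3 (-0.37, SE 0.18) and Acsl1 (-0.36, SE 0.18) had unadjusted p-values above 0.05 in limma's fit. The diets overlapped for all 4. Acaca, the acetyl-CoA carboxylase that feeds Fasn, was named beside the list's rule after its value had been seen, and had -0.025 and 0.01 on its probe sets.

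**Figure D5:**
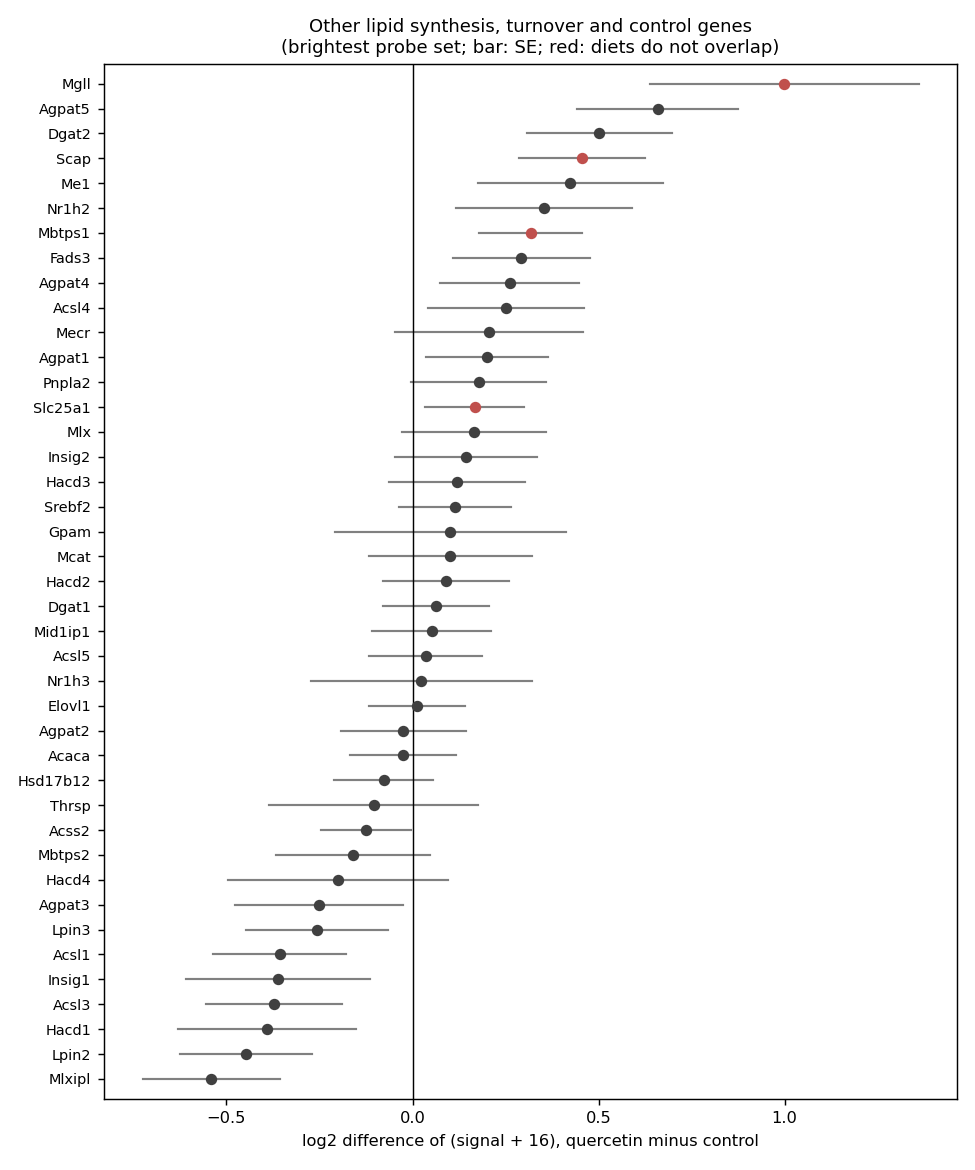
Log2 difference (horizontal axis, quercetin minus control, on log2(signal + 16)) of the brightest probe set of 41 other genes of lipid synthesis, turnover and control, ordered by its value, with the SE as a bar. Red points, Mgll, Scap, Mbtps1 and Slc25a1, are genes whose diets did not overlap, and the range runs from Mlxipl at -0.54 to Mgll at 1.00.

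Several cell types that a scraping can hold make these enzymes, so their markers are given beside the results. Epithelial markers were all measured, 14 of 14, with Vil1, a brush border protein, at 4358 to 5379 in quercetin and 4213 to 6217 in control, and a list mean that differed by 0.02. Of 15 fat cell markers 8 were tested, and their list mean was 0.33 higher in quercetin (exact permutation p = 0.0857, two-sided, adjusted p = 0.257 over 6 lists, smallest possible p 0.0286). Without quercetin array 1 it was 0.19. Their summed signal was 5224 to 7213 in quercetin and 7204 to 8189 in control, but most of it was Pck1, an enzyme that gut epithelium also makes, and without Pck1 it was 516 to 1023 in quercetin and 494 to 609 in control. Adipoq, the fat cell hormone, had 46.5 to 123 in quercetin and 18.8 to 70.8 in control, and the fat droplet protein Plin1 was below the filter. The fatty acid carrier Fabp4 had 24.1 to 168 in quercetin and 3.26 to 27.3 in control, a log2 difference of 1.54 (SE 0.47, limma adjusted p = 0.300), where Adipoq had 0.41 (SE 0.34). Fabp4 is 1 of the 8 markers tested, so a large part of the list mean of 0.33 came from it. The list mean without Fabp4 was not computed. The diets of Fabp4 overlapped, and all its control signals were below 29.4, the signal at which the filter began. The part of Fabp4 or of fat cells in the values of Lpin1, Mgll and Dgat2 was not tested.

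Muscle markers, 7 of 12, summed to 1699 to 2140 in quercetin and 1799 to 3464 in control, with a list mean of -0.08. Proliferation genes, 12 of 12, summed to 4871 to 7902 in quercetin and 2243 to 5551 in control, with a list mean of 0.65 (exact permutation p = 0.0571, adjusted p = 0.257), and control array 1 was the lowest at -1.06 from the mean of the 8 arrays. Without control array 1 the list mean was 0.41. Glia and nerve had 1 of 8 markers tested and lymphocytes 2 of 8, with list means of -0.03 and 0.19. The summed signal was 30.6 to 56.8 in quercetin and 22.6 to 62.4 in control for glia and nerve, and 231 to 577 in quercetin and 193 to 505 in control for lymphocytes. Sox10, Cd79b and Cd3e, which define these cells, were below the filter. Within diets Scd2 had an r of -0.06 to 0.40 with the 6 list means (exact permutation adjusted p = 0.993 for each). The part of cell makeup in the results was not tested.

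The array least like the rest was control array 2, whose mean correlation to them was 0.927, where the other 7 had 0.941 to 0.955. Its 3' to 5' signal ratio, which rises when RNA is shortened, was 3.79 for GAPDH, against 1.58 to 2.36 on the other arrays. The same ratio for actin was 6.79 to 9.12 in quercetin, against 8.65, 10.2, 12.4 and 21.4 in control, with control array 2 the highest, so it was mostly lower in quercetin. For hexokinase control array 2 had 2.76, inside the range of the other arrays. The part of the actin ratio in the results was not tested. With the GAPDH ratio as a covariate the Scd2 value was -0.89 and the Lpin1 value 0.53. Without control arrays 1 and 2 they were -0.76 and 0.54. For Scd, Acly, Fads1, Fads2, the brighter Fasn probe set and Lpin1 1372524_at control array 2 held the lowest or highest control signal. So it did for both probe sets of Elovl5 and of Elovl6, for Scd2 1386889_at and for Srebf1 1371104_at. Without control array 2 the value of Lpin1 1372524_at was 0.49. The part of its RNA in these values was not tested.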

How the data were processed

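Total RNA of 8 distal colon scrapings was labelled with biotin and hybridised to Affymetrix rat arrays, 1 array a sample. The deposited files hold linear intensity values, namely MAS5 signals according to the submitters' processing notes, with 1 value for each probe set on each array. A genome build is not given in the sources used here. The number of arrays limits the precision.

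Signals became log2(signal + 16). The 57 array controls were dropped, and the 60% of probe sets with the highest mean were fitted with limma 3.58.1 in R 4.3.3 (two-sided, eBayes with trend, Benjamini-Hochberg). Groups and replicate numbers came from the sample titles. Correlations used deviations from the diet mean and all 576 permutations within diets. Every probe set of the 10 genes is given. Of the wider list the 4 genes with the lowest p in each direction are named, and of all genes the 5 most like Scd, Scd2 and Fasn. Symbols of the 10 genes matched RefSeq by Entrez identifier. The fit was tested on simulated data. Alternatives changed the pseudocount (1 or 64), the scaling (quantile or median), the filter (none, or the upper 40%), the fit (array weights, replicate block, no trend, GAPDH ratio as a covariate) and the arrays used. Fads2 among the correlations and the pairs of probe sets of 1 gene were added after seeing the data, and Acaca was named after its value had been seen. The correlations of Scd2 with the marker lists and the fat cell sum without Pck1 were not among the tests set beforehand. Genes and lists were chosen with earlier results of these data known.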

Additional observations from a re-analysis of the deposited data

Results flagged for a closer look

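Of 70 groups of 4 arrays (18 probe sets of the 10 genes, 8 named genes of the wider list, 6 marker lists and 3 array ratios, in each diet), 7 held an array that stood well away from its group, and about 3.5 would do so by chance. The value in brackets is that array's distance from its nearest neighbour divided by the whole spread of the group, on the log2 scale. Scd was low on control array 2 (0.935), and its difference between the diets changed sign without that array. Scd2 probe set 1367668_a_at was high on control array 1 (0.869), and Fasn probe set 1367707_at was low on quercetin array 3 (0.884). In the wider list Mgll was low on control array 1 (0.898), Mlxipl was high on quercetin array 3 (0.896) and Acsl1 was high on quercetin array 1 (0.871). For hexokinase, quercetin array 4 had a high ratio of 3' to 5' signal (0.912).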

How the results depend on the processing

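Over the 18 probe sets of the 10 genes, 18 of 316 values under alternatives had the opposite sign to the value reported, on 8 probe sets with differences between -0.23 and 0.39. Changing the filter, adding the replicate block or dropping the trend leaves a difference unchanged by construction. Fits with 1 array left out share most of their arrays. The values that kept their sign are thus no sign of stability. Leaving out control array 2 moved Scd from 0.39 to -0.08 and Fads1 from -0.23 to 0.17. Scd2 1367668_a_at stayed negative and Lpin1 1372524_at positive in every alternative, with limma adjusted p-values of 0.109 to 0.594 and 0.270 to 0.667. The count of probe sets of these genes at an unadjusted p under 0.05, 2 in all, was 1 with the upper 40% of probe sets, where Lpin1 was not among those tested, 1 without control arrays 1 and 2, and 1 to 2 with single arrays left out, the lower count without quercetin arrays 2 or 4. Over all probe sets 2 passed limma's adjusted threshold, against 1 with a pseudocount of 1, quantile normalisation, median centring, no filter or no trend, 3 with a pseudocount of 64, 0 without control arrays 1 and 2, and 1 to 2 with single arrays left out, the lower count without control arrays 1, 2 or 3 or quercetin arrays 2 or 4. Of the wider list 7 genes had an unadjusted p under 0.05, against 3 without control arrays 1 and 2, 9 with array weights and 5 to 8 with single arrays left out. The count of correlated pairs of genes was 0, against 3 with the diet mean left in, and 0 to 0 with single arrays left out. The count of marker lists with an exact permutation p under 0.05 was 0, against 1, the proliferation list, with a pseudocount of 1 or median centring, and 0 to 1 with single arrays left out, the proliferation list without control array 2 and the fat cell list without quercetin array 3. The Elovl5 pair of probe sets was the 1 that passed, against 0 with median centring and 0 to 2 with single arrays left out, where its r was -0.99 to -0.96 and fewer permutations exist. The cause of the other changes was not tested.

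Same-numbered quercetin and control arrays deviated from their diet means with correlations of -0.02, 0.16, -0.15 and 0.14. These are weak, but they cannot show whether the numbers pair the samples. With the replicate block 1 probe set passed over all probe sets, and the limma adjusted p of Scd2 was 0.123 and that of Lpin1 0.427. The number of arrays and the scatter of dim MAS5 signals limit what can be seen: the intervals of Scd, Fads1 and the dim Scd2 probe sets are wide.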
